A study of Mus musculus with 12 samples.

Results

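The interleukin-1 family genes described here are 10: the ligands Il1a, Il1b and Il18, the receptor chains Il1r1, Il1rap and Il18r1, the decoy receptor Il1r2, the soluble inhibitor Il18bp, and the processing genes Casp1 and Nlrp3. They were found by symbol, chosen by name and by their levels in these same libraries, and all 10 were among the 24881 gene features used. The RNA came from untreated C57BL/6J males, 18 weeks old and fed normal chow. Collagenase I digestion separated each fat depot into adipocytes and stromal vascular cells (SVCs), a mixture of the precursor, vascular and immune cells of fat. The 4 groups, of 3 libraries each, were inguinal (IAT, subcutaneous) adipocytes, epididymal (EAT, visceral) adipocytes, IAT SVCs and EAT SVCs. The labels do not say whether the libraries of a group came from separate or pooled mice, so errors and p-values measure the spread between libraries, which may be technical.

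Interleukin-1α and interleukin-1β are inflammatory cytokines that bind a receptor made of IL1R1 and the accessory chain IL1RAP, which signals through MYD88 to NF-κB. IL1R2 binds the same ligands but lacks a signalling domain and so acts as a decoy. The precursors of interleukin-1β and interleukin-18 are cut by caspase-1, which inflammasomes such as that of NLRP3 activate, and the secreted protein IL18BP holds interleukin-18 away from its receptor. In fat, macrophages are a known source of interleukin-1β.

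Levels are FPKM, fragments per kilobase of transcript scaled to the mapped fragments of the library, so levels of different genes can be set side by side. Differences are on the scale of log2(FPKM + 1), which understates the change of genes at low levels, and each carries the standard error (SE) of a fit across 13175 features that reached 1 FPKM in 3 or more libraries of the 12. The 10 genes were chosen with their levels known and are described without a test. All of them passed the filter, some only through the group in which they were high (Il1a through EAT SVCs, Il18r1 through SVCs), so their counts support nothing.

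In SVCs, Il1r2 had the widest spread between depots of the 10 genes. It was present at 68.3 ± 3.3 FPKM in IAT SVCs and 1.8 ± 0.495 FPKM in EAT SVCs (SD, n = 3 each), 37.9 times the EAT level. Il1b, Nlrp3 and Il1a stood the other way, lower in IAT than in EAT in SVCs and in adipocytes. Il1r1 and Il1rap, the signalling receptor chains, overlapped between the depots in SVCs. All 10 transcripts were lower in adipocytes than in SVCs of the same depot.

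**Figure D1:**
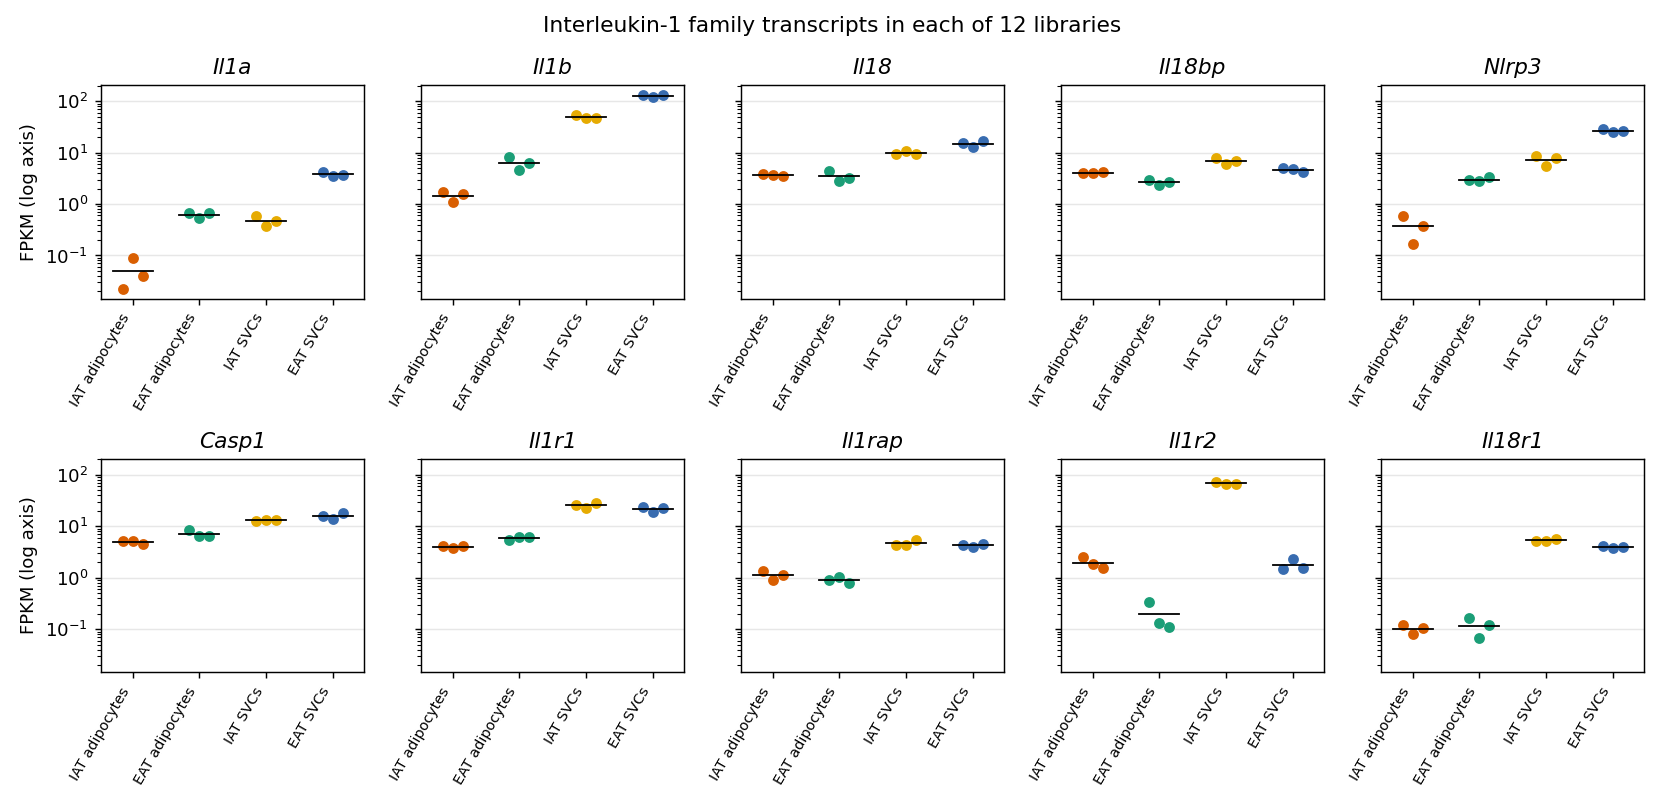
FPKM of the 10 genes (vertical log axis) in each of the 12 libraries, by group; points are libraries and lines are means of 3. Il1r2 lies between 65.3 and 71.9 FPKM in IAT SVCs and between 1.5 and 2.37 FPKM in EAT SVCs, while Il1a, Il1b and Nlrp3 are lower in IAT than in EAT in each fraction.

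Between the depots, 2 of the 10 genes were higher in IAT adipocytes than in EAT adipocytes with no overlap of libraries, 5 were lower and 3 overlapped, with a median log2 difference of -0.23. Of all features tested, 13.5% were higher and 34.8% lower without overlap in that comparison, and the median feature differed by -0.1. In SVCs 3 genes were higher in IAT than in EAT without overlap, 5 were lower and 2 overlapped, with a median of -0.08. The shares over all features were 20.1% higher and 35.0% lower, with a median of -0.06. Nothing is read from these counts, since the levels chose the genes.

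Il1b (chr2:129364580-129371120, GRCm38, as are all positions given) encodes interleukin-1β. Its level was 53.1, 48.1 and 46.7 FPKM in the IAT SVC libraries and 129, 121 and 134 FPKM in the EAT SVC libraries. In adipocytes it was 1.68, 1.09 and 1.6 FPKM in IAT and 8.21, 4.65 and 6.31 FPKM in EAT. Every IAT library was thus below every EAT library of its fraction, and all 4 groups stood apart, in the order EAT SVCs, IAT SVCs, EAT adipocytes, IAT adipocytes. The log2 difference, IAT minus EAT, was -1.36 ± 0.15 (SE) in SVCs, where the IAT mean was 38.4% of the EAT mean, and -1.57 ± 0.15 in adipocytes, where it was 22.8%. Il1b was the most abundant of the 10 genes in EAT SVCs, above 96.0% of the features tested.

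Il1a (chr2:129299610-129309972), its neighbour on chromosome 2, encodes interleukin-1α, which is active without cleavage by caspase-1. In SVCs it was 0.579, 0.378 and 0.472 FPKM in IAT and 4.17, 3.58 and 3.75 FPKM in EAT. The adipocyte libraries had 0.0224, 0.0893 and 0.0394 FPKM in IAT and 0.663, 0.531 and 0.66 FPKM in EAT. EAT SVCs were thus the single group above 1 FPKM, IAT adipocytes were lowest, and EAT adipocytes and IAT SVCs overlapped. The IAT SVC mean was 12.4% of the EAT SVC mean (log2 difference -1.71 ± 0.07), and the IAT adipocyte mean was 8.15% of the EAT adipocyte mean (-0.62 ± 0.07). The adipocyte value rests on an estimated 0.489 to 4.17 fragments per IAT library, against 22.8 to 34.1 per EAT library.

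Il18 (chr9:50565368-50581837) encodes interleukin-18, whose precursor many cell types hold without stimulation. It was 9.48, 10.8 and 9.26 FPKM in IAT SVCs and 15.1, 13.1 and 16.5 FPKM in EAT SVCs, so the IAT libraries were all lower (log2 difference -0.55 ± 0.12). Its adipocyte levels were 3.8, 3.74 and 3.46 FPKM in IAT and 4.3, 2.84 and 3.27 FPKM in EAT. The adipocyte groups overlapped, with a log2 difference of 0.07 ± 0.12. Without EAT adipocyte replicate 2 that difference was -0.03.

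The sequences around the starts of Il1a and Il1b, the 2 ligands that were lower in IAT in each fraction, are shown with that of Il1r2, which was higher there. They are RefSeq windows on GRCm38.p6, 250 bases before to 50 after the annotated start, written 5′ to 3′ along the gene. Capitals mark matches to TATAAA (the TATA box) or TGANTCA (the AP-1 motif), each searched on both strands.
Il1a (chr2:129309923-129310222, minus strand): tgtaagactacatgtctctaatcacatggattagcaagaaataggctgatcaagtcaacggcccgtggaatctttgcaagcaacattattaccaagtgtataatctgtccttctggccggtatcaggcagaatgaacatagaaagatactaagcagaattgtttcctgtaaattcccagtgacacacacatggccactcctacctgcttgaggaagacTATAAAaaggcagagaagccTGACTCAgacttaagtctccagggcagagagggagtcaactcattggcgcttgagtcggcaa
Il1b (chr2:129371090-129371389, minus strand): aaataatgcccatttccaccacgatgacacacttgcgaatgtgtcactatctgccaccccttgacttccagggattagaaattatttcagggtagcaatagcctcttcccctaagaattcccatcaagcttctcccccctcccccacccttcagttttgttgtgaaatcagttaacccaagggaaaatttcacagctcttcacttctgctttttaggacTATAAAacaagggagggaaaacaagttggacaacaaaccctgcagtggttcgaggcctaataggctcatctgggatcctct
Il1r2 (chr1:40085843-40086142, plus strand): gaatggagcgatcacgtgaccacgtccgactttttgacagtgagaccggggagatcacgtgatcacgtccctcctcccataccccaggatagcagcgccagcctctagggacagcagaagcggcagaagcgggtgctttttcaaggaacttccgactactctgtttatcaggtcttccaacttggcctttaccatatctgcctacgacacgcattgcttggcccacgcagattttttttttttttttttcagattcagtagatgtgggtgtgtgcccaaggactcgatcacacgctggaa
Both ligand windows hold TATAAA, 32 bases before the start in Il1a and 31 in Il1b, and Il1a also holds TGACTCA 12 bases before its start. TATAAA occurred in 13.6% and TGANTCA in 7.81% of 32851 windows of the same length. The Il1r2 window holds neither set of letters. Its start lies 1325 bases inside the locus that the deposited tables give for the gene, so it is not the outermost start of that locus. The matches are descriptions of letters and not binding sites.

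Nlrp3 (chr11:59542686-59566956) encodes the sensor of an inflammasome. In SVCs it was 8.54, 5.48 and 7.84 FPKM in IAT and 29.0, 25.2 and 26.5 FPKM in EAT, and in adipocytes 0.586, 0.167 and 0.376 FPKM in IAT and 2.94, 2.77 and 3.29 FPKM in EAT. All 4 groups stood apart, in the same order as those of Il1b. The log2 difference, IAT minus EAT, was -1.77 ± 0.14 in SVCs and -1.55 ± 0.14 in adipocytes, means of 27.1% and 12.6% of the EAT level.

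Casp1 (chr9:5298517-5307281), the protease itself, differed less. It was 13.0, 13.3 and 13.3 FPKM in IAT SVCs and 16.1, 13.9 and 17.9 FPKM in EAT SVCs, a log2 difference of -0.25 ± 0.11. Adipocytes had 5.27, 5.12 and 4.59 FPKM in IAT and 8.6, 6.38 and 6.57 FPKM in EAT, a difference of -0.44 ± 0.11. The depots did not overlap in either fraction, with the IAT means at 82.8% of EAT in SVCs and 69.5% in adipocytes.

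Il1r1 (chr1:40225080-40316177) and Il1rap (chr16:26581705-26725147) encode the chains of the signalling receptor. Il1r1 was 26.5, 23.2 and 28.4 FPKM in IAT SVCs and 23.7, 19.3 and 23.2 FPKM in EAT SVCs. Adipocytes held 4.11, 3.75 and 4.13 FPKM in IAT and 5.55, 6.3 and 6.18 FPKM in EAT. The SVC groups overlapped (log2 difference 0.23 ± 0.10), while all IAT adipocyte libraries were below the EAT ones (-0.49 ± 0.10). Il1rap was lower than Il1r1 in every group, from 4.34 to 5.33 FPKM in IAT SVCs and 4.02 to 4.59 in EAT SVCs, and from 0.92 to 1.34 FPKM in IAT adipocytes and 0.799 to 1.02 in EAT adipocytes. Its depots overlapped in each fraction.

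Il1r2 (chr1:40084768-40125226), the decoy, was 71.9, 67.8 and 65.3 FPKM in IAT SVCs and 1.5, 2.37 and 1.54 FPKM in EAT SVCs. The adipocyte levels were 2.52, 1.82 and 1.58 FPKM in IAT and 0.341, 0.131 and 0.109 FPKM in EAT. IAT SVCs were far above all other groups, IAT adipocytes and EAT SVCs overlapped, and EAT adipocytes were lowest. The log2 difference, IAT minus EAT, was 4.64 ± 0.14 in SVCs and 1.31 ± 0.14 in adipocytes. The SVC difference ranked 3 from the top of 13175 features. In IAT SVCs Il1r2 was above 92.8% of the features tested, and in EAT SVCs above 15.1%.

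The adipocyte mean of Il1r2 was 10.2 times higher in IAT than in EAT, a size the log2 scale compresses: with a pseudocount of 0.1 FPKM in place of 1 the log2 difference was 2.88. The EAT adipocyte levels rest on an estimated 3.0 to 11.9 fragments per library, against 51.9 to 71.5 in IAT adipocytes. The deposited lower confidence bound was 0.0 FPKM in EAT adipocyte replicates 2 and 3 and 0.143 FPKM in replicate 1.

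Il18r1 (chr1:40465552-40500854) encodes the ligand-binding chain of the interleukin-18 receptor. It was 5.24, 5.23 and 5.71 FPKM in IAT SVCs and 4.16, 3.85 and 4.02 FPKM in EAT SVCs, higher in IAT without overlap (log2 difference 0.35 ± 0.061). In adipocytes it was between 0.0805 and 0.121 FPKM in IAT and between 0.067 and 0.166 FPKM in EAT, and the depots overlapped. The adipocyte log2 difference of -0.02 ± 0.061 was 0.01 without EAT adipocyte replicate 1 and 0.02 after quantile normalization.

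Il18bp (chr7:102015077-102018155), the soluble inhibitor of interleukin-18, was the other gene besides Il1r2 that was higher in IAT in each fraction. It was 7.82, 5.89 and 6.86 FPKM in IAT SVCs and 4.92, 4.73 and 4.18 FPKM in EAT SVCs. Its levels in adipocytes were 4.01, 3.93 and 4.22 FPKM in IAT and 2.89, 2.34 and 2.7 FPKM in EAT. The groups did not overlap in either fraction, with log2 differences of 0.48 ± 0.10 in SVCs and 0.47 ± 0.10 in adipocytes.

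**Figure D2:**
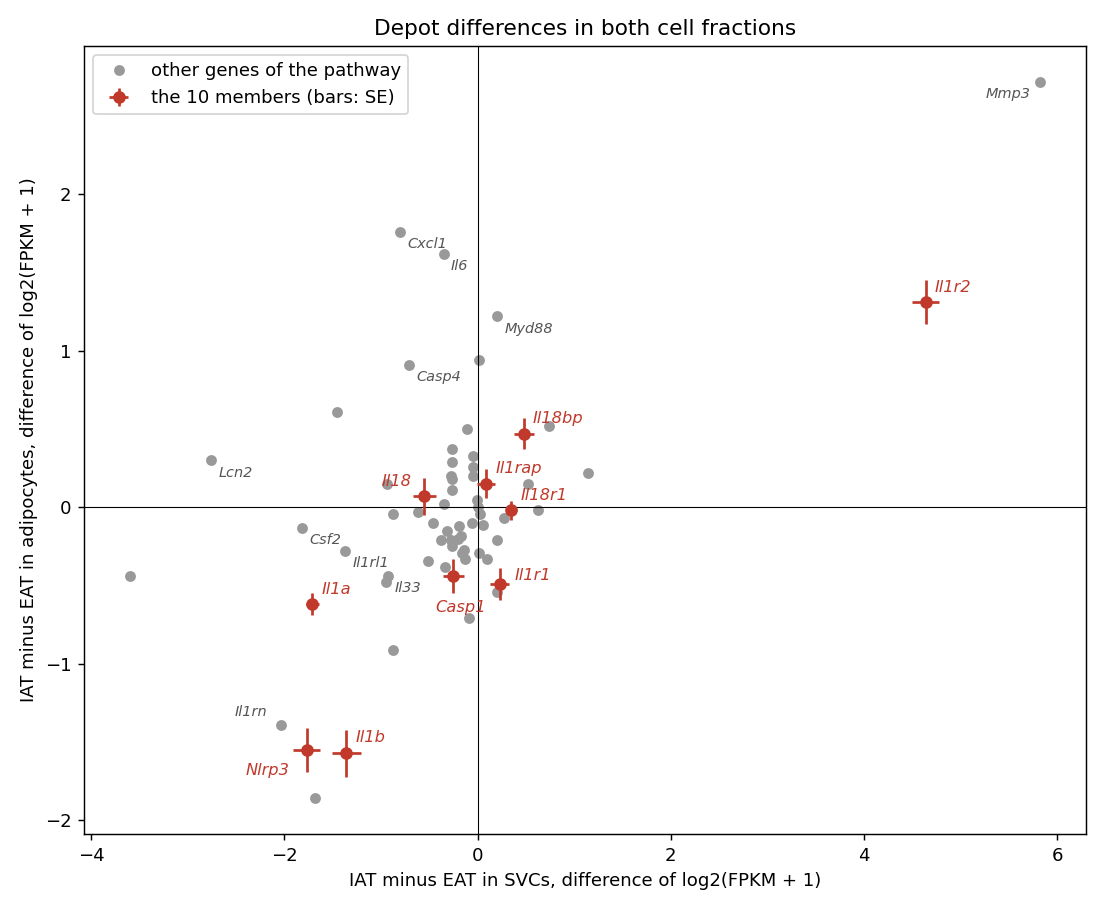
Difference in log2(FPKM + 1), IAT minus EAT, in SVCs (horizontal) and adipocytes (vertical); red points are the 10 genes with SE bars and grey points the 57 other pathway genes tested. Il1r2 lies at 4.64 and 1.31, and Nlrp3 at -1.77 and -1.55.

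Ratios of a gene that restrains the pathway to a receptor or ligand were then taken within each library. The ratio of the decoy to the receptor it competes with, Il1r2 to Il1r1, was 2.72, 2.93 and 2.3 in IAT SVCs and 0.0632, 0.123 and 0.0663 in EAT SVCs. In adipocytes it was 0.613, 0.484 and 0.382 in IAT and 0.0614, 0.0208 and 0.0176 in EAT. The decoy transcript thus exceeded the receptor transcript in all 3 IAT SVC libraries and in none of the other 9. The EAT adipocyte mean of 0.0333 was 0.0192 without replicate 1.

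The ratio of the inhibitor to the ligand it binds, Il18bp to Il18, was 0.704 ± 0.143 in IAT SVCs and 0.314 ± 0.0551 in EAT SVCs (SD, n = 3 each). In adipocytes it was 1.11 ± 0.0964 in IAT and 0.774 ± 0.0873 in EAT, so the inhibitor transcript was at or above its ligand only in IAT adipocytes. IAT was higher than EAT without overlap in each fraction. The third ratio went the other way: that of Il1rn, the interleukin-1 receptor antagonist, to the ligands it competes with, Il1a plus Il1b, was 0.0594 ± 0.0111 in IAT SVCs and 0.114 ± 0.0101 in EAT SVCs. It was 0.144 ± 0.0261 in IAT adipocytes and 0.318 ± 0.0206 in EAT adipocytes, lower in IAT without overlap. Among the ligands, Il1b stood at 5.03 ± 0.574 times Il18 in IAT SVCs and 8.68 ± 0.577 times in EAT SVCs, and at 0.399 ± 0.0936 times in IAT adipocytes and 1.83 ± 0.162 times in EAT adipocytes.

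**Figure D3:**
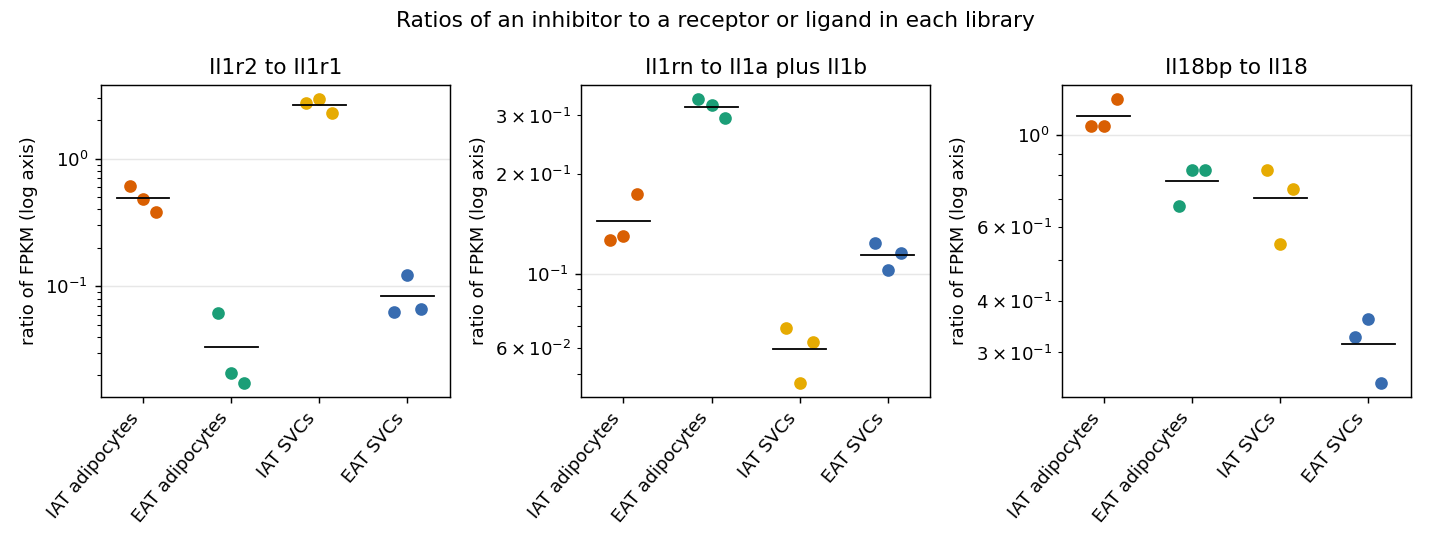
Ratio of FPKM within each library of the decoy to the signalling receptor, the antagonist to the ligands it competes with, and the inhibitor to the ligand it binds (vertical log axes), by group; points are libraries and lines are means of 3. Il1r2 to Il1r1 lies between 2.3 and 2.93 in IAT SVCs and at 0.613 or below in every other library.

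Set against SVCs of the same depot, adipocytes were lower in all 10 transcripts without overlap, with a median log2 difference of -1.93 in IAT and -1.65 in EAT. Of all features tested, 56.7% in IAT and 52.3% in EAT were lower in adipocytes without overlap. The median feature differed by -0.34 in IAT and -0.31 in EAT, and by -0.03 and -0.04 after median-of-ratios scaling. In IAT the Il1r2 mean in adipocytes was 2.88% of that in SVCs (log2 difference -4.56 ± 0.14), that of Il1b 2.96% (-4.36 ± 0.15) and that of Il18r1 1.9% (-2.53 ± 0.061). In EAT the same genes stood at 10.7% (-1.22 ± 0.14), 4.98% (-4.16 ± 0.15) and 2.95% (-2.16 ± 0.061). The EAT value of Il1r2 was -2.75 with a pseudocount of 0.1 FPKM and -0.57 after quantile normalization. Il18bp was nearest to its SVC level, at 59.1% in IAT and 57.4% in EAT, followed by Casp1 at 37.8% and 45.0%.

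Markers of other cell types were measured beside these values. The summed FPKM of 10 macrophage markers was 1160 to 1280 in IAT SVCs and 1740 to 1820 in EAT SVCs, and 8 of the 10 were lower in IAT. In adipocytes the sum was 45.9 to 62.9 in IAT and 221 to 263 in EAT, and all 10 were lower in IAT (limma with Benjamini-Hochberg adjustment over all features, here and for every call). Per unit of that sum, Il1a and Nlrp3 remained lower in IAT than in EAT without overlap in both fractions. Il1b did so in SVCs, at 3.79% to 4.15% of the macrophage sum in IAT and 6.68% to 7.43% in EAT, but overlapped in adipocytes, at 2.38% to 2.92% in IAT and 2.1% to 3.12% in EAT. Casp1 was higher in IAT per unit of the sum in both fractions, at 1.02% to 1.15% in IAT SVCs and 0.764% to 0.98% in EAT SVCs. So were Il1r1, Il1r2, Il1rap, Il18r1 and Il18bp. Il18 overlapped in SVCs and was higher in IAT adipocytes, at 6.03% to 8.15% against 1.28% to 1.63% in EAT adipocytes. The mean of the sum itself was 4.45 times higher in EAT than in IAT adipocytes, which raises every IAT adipocyte value of this kind. In bulk libraries fewer cells of a type and less RNA per cell cannot be told apart.

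The adipocyte libraries also held SVC transcripts. The macrophage sum in adipocytes was 4.41% of that in SVCs in IAT and 13.5% in EAT, beside the 2.96% and 4.98% of Il1b. Il1r2 stood at 2.88% in IAT and 10.7% in EAT, and the other marker sums varied. The sum of 7 progenitor and fibroblast markers stood at 4.14% in IAT and 3.78% in EAT. In the same order, endothelial markers stood at 16.8% and 15.9%, neutrophil at 12.4% and 9.24%, and dendritic cell at 7.88% and 10.4%. The neutrophil sum in adipocytes was mostly S100a8, at 6.53 FPKM in IAT and 10.7 in EAT. The median neutrophil gene stood at 4.33% in IAT and 5.68% in EAT. Mast cell markers stood at 4.0% and 2.29%, and natural killer and innate lymphoid at 2.74% and 2.33%. B cell markers stood at 2.84% and 3.61%, and T cell at 1.18% and 2.08%. Mesothelial markers, low in IAT, stood at 29.5% and 4.44%. Markers of adipocytes identified the fractions: 7 genes summed to 8550 to 9390 FPKM in IAT adipocytes and 139 to 161 in IAT SVCs, and to 9990 to 10600 in EAT adipocytes and 76.1 to 87.9 in EAT SVCs. The part of SVC RNA in the adipocyte levels of the 10 genes, and of the other pathway genes described below, was not tested.

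Of the marker lists, some were higher and others lower in IAT SVCs, where Il1r2 was high. T cell markers summed to 107, 168 and 117 FPKM in IAT SVCs and 16.4 to 17.8 in EAT SVCs, and B cell markers to 156, 243 and 176 FPKM in IAT SVCs and 37.9 to 41.4 in EAT SVCs. In each list all 6 genes tested were higher in IAT, and replicate 2, highest in both sums, was between the other libraries for Il1r2. Natural killer and innate lymphoid markers summed to 45.2 to 54.5 FPKM in IAT SVCs and 20.8 to 25.0 in EAT SVCs, with 4 of 5 tested higher and 1 lower in IAT. Endothelial markers summed to 484 to 617 FPKM in IAT SVCs and 429 to 465 in EAT SVCs, with 3 of 6 higher and 0 lower (limma). Lists that ran the other way included dendritic cells, with 3 of 6 tested lower and 0 higher in IAT, and mast cells, with 3 of 5 lower and 0 higher. Neutrophil markers, 8 genes, summed to 58.3 to 71.9 FPKM in IAT SVCs and 113 to 156 in EAT SVCs, and 6 of 6 tested were lower in IAT. Mesothelial markers summed to 1.51 to 1.9 FPKM in IAT SVCs, with Wt1 at 0, and to 393 to 458 in EAT SVCs. Of 7 progenitor and fibroblast markers 3 were higher and 4 lower in IAT SVCs. Their sum, 3630 to 3760 FPKM in IAT SVCs and 3890 to 4580 in EAT SVCs, was mostly Dcn, at 2320 FPKM in IAT SVCs and 3530 in EAT SVCs. Col1a1 averaged 670 FPKM in IAT SVCs and 250 in EAT SVCs, and Pi16 318 FPKM in IAT SVCs and 108 in EAT SVCs. The part of any of these cells in the Il1r2 difference was not tested.

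Il1r2, Il1r1 and Il18r1 lie in a run of 6 receptor genes within 466.9 kb of chromosome 1 (chr1:40084768-40551705), in the order Il1r2, Il1r1, Il1rl2, Il1rl1, Il18r1, Il18rap. The genes of the run did not share a depot difference in SVCs. Among the 3 that were not chosen, Il1rl2, the receptor of the interleukin-36 cytokines, was 13.5, 10.4 and 15.8 FPKM in IAT SVCs and 6.31, 5.32 and 4.62 FPKM in EAT SVCs, and rose by 1.14 ± 0.14 on the log2 scale in IAT (limma adjusted p = 2.9e-05). Il1rl1, the interleukin-33 receptor, was 2.9, 2.91 and 3.12 FPKM in IAT SVCs and 9.72, 8.53 and 9.7 FPKM in EAT SVCs, and fell by 1.37 ± 0.065 (limma adjusted p = 4.4e-09). Il18rap, the accessory chain of the interleukin-18 receptor, was 1.47 to 1.77 FPKM in IAT SVCs and 1.52 to 1.63 in EAT SVCs, with a difference of 0.00 ± 0.057 (limma adjusted p = 0.972). The values of Il1r2, Il1r1 and Il18r1, given above, were 4.64, 0.23 and 0.35.

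**Figure D4:**
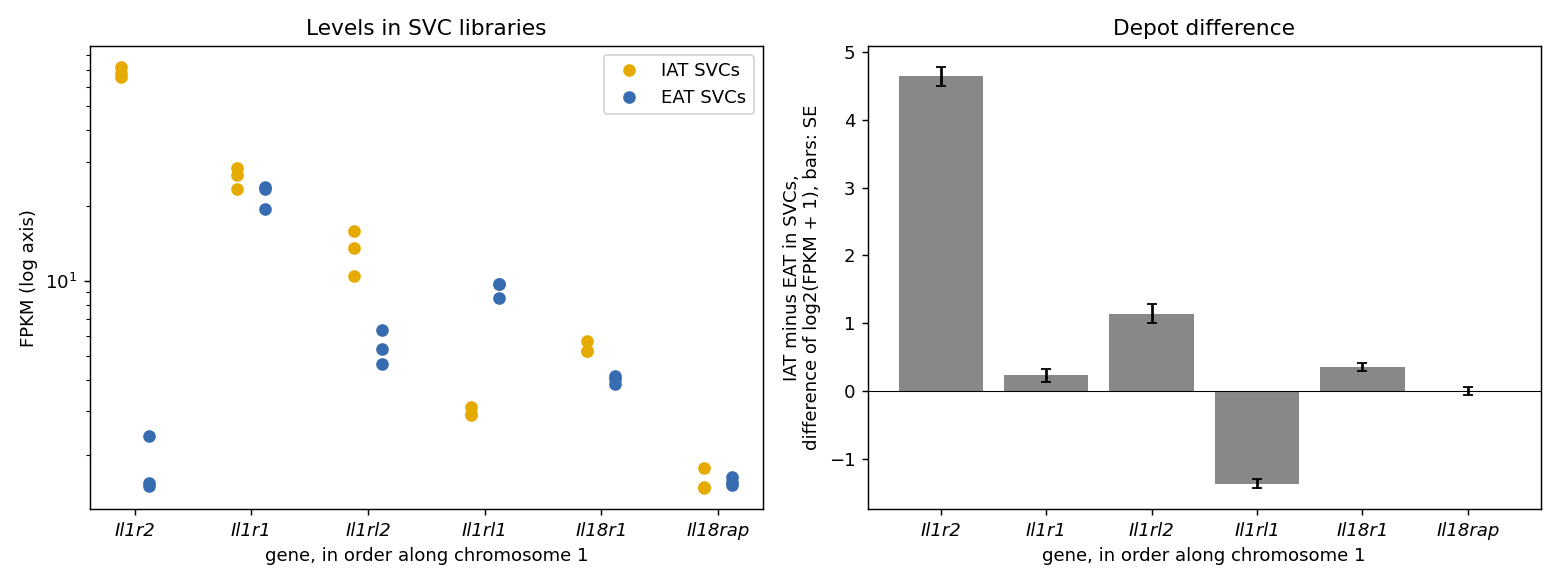
The 6 receptor genes in their order along chromosome 1: left, FPKM in each IAT SVC and EAT SVC library (log axis); right, difference in log2(FPKM + 1), IAT minus EAT in SVCs, with SE bars. Il1r2 stands at 4.64, Il1rl2 at 1.14 and Il1rl1 at -1.37.

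Beyond the 10 genes, 70 genes of the pathway were in the tables and 57 passed the filter. They form 5 lists: other ligands and antagonists, other receptors, signalling, inflammasome and processing, and genes known to respond to interleukin-1. In SVCs 8 of the 57 were higher and 25 lower in IAT than in EAT at an adjusted p under 0.05 (limma), with a median difference of -0.27, while 14.0% of all features were called higher and 26.2% lower. The 25 include Il1f9, Nlrp1b, Mefv and Csf2, which passed the filter only through EAT SVCs, the group where they were high. The count higher was 5 without EAT SVC replicate 1, without EAT SVC replicate 2, without IAT SVC replicate 2 or without IAT SVC replicate 3, and 4 on a TPM scale, where 28 were lower. In adipocytes 11 were higher and 17 lower in IAT than in EAT, with a median of -0.07, and 10.3% of all features were called higher and 27.3% lower. That split was 15 higher and 11 lower after median-of-ratios scaling, and 14 and 9 after quantile normalization.

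Of the 3 other ligands and antagonists tested, 3 were lower in IAT SVCs than in EAT SVCs and 2 in IAT adipocytes than in EAT adipocytes. Of all features, 26.2% were called lower in IAT SVCs and 27.3% in IAT adipocytes. Il1rn was 3.69, 2.28 and 2.93 FPKM in IAT SVCs and 16.5, 12.9 and 16.0 FPKM in EAT SVCs (fell by 2.03 ± 0.15, limma adjusted p = 3.7e-07). In adipocytes Il1rn was 0.216, 0.153 and 0.285 FPKM in IAT and 2.98, 1.67 and 2.06 FPKM in EAT (fell by 1.39 ± 0.15, limma adjusted p = 2.0e-05). The antagonist was thus lower in IAT together with the ligands it competes with. Il33, an alarmin of stromal cells, averaged 6.34 FPKM in IAT SVCs and 13.0 in EAT SVCs (fell by 0.93 ± 0.074, limma adjusted p = 5.7e-07), and 0.136 FPKM in IAT adipocytes and 0.546 in EAT adipocytes (fell by 0.44 ± 0.074, limma adjusted p = 5.7e-04). Its level reached 1 FPKM in SVC libraries alone. Il1f9, the older symbol of an interleukin-36 gene, averaged 0.989 FPKM in IAT SVCs and 1.5 in EAT SVCs (limma adjusted p = 0.0218). Its call was lost without EAT SVC replicate 2 or 3 or IAT SVC replicate 2, where the adjusted p was 0.0893, 0.0684 and 0.0881.

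Of the 4 other receptors tested, 2 were higher and 1 lower in IAT SVCs, beside 14.0% and 26.2% of all features. In IAT adipocytes 1 was higher and 1 lower, beside 10.3% and 27.3%. Sigirr, a receptor that restrains interleukin-1 signalling, averaged 9.65 FPKM in IAT SVCs and 5.36 in EAT SVCs (rose by 0.74 ± 0.14, limma adjusted p = 8.1e-04), and 1.47 FPKM in IAT adipocytes and 0.714 in EAT adipocytes (rose by 0.52 ± 0.14, limma adjusted p = 0.00988). Il1rl1 also fell in adipocytes, to 0.0827 FPKM in IAT, against 0.317 in EAT (limma adjusted p = 0.005). It reached 1 FPKM in SVC libraries alone, and its adipocyte means were 2.78% of the SVC mean in IAT and 3.4% in EAT.

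In the signalling list 3 of 21 genes were higher and 5 lower in IAT SVCs, beside 14.0% and 26.2% of all features. Irak2, a kinase recruited by MYD88, averaged 12.4 FPKM in IAT SVCs and 18.1 in EAT SVCs (limma adjusted p = 5.9e-05), and Nfkb1, an NF-κB subunit gene, 44.1 and 68.2 FPKM (limma adjusted p = 1.5e-04). Irak4 and Tollip fell by 0.35 ± 0.083 and 0.27 ± 0.067 (limma adjusted p = 0.00507 and 0.00673). In adipocytes 1 of the 21 genes was higher in IAT and 8 were lower, beside 10.3% and 27.3% of all features. The higher one was Myd88, the adaptor of the receptor, at 31.2, 33.8 and 32.1 FPKM in IAT adipocytes and 12.6, 13.9 and 13.4 FPKM in EAT adipocytes (rose by 1.22 ± 0.069, limma adjusted p = 4.3e-08). In SVCs Myd88 averaged 45.8 FPKM in IAT and 39.7 in EAT (limma adjusted p = 0.0312), a call lost without EAT SVC replicate 1 or 3 or IAT SVC replicate 1 or 2, where the adjusted p was 0.135, 0.0579, 0.107 and 0.0694. Tab3 fell by 0.71 ± 0.10 in IAT adipocytes (limma adjusted p = 1.0e-04), and Irak2 by 0.34 ± 0.068 (limma adjusted p = 0.00188). Map3k7, the kinase TAK1, fell by 0.33 ± 0.077 (limma adjusted p = 0.00528, and 0.0629 after quantile normalization).

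Among 12 inflammasome and processing genes, 1 was higher and 7 lower in IAT SVCs, beside 14.0% and 26.2% of all features. In IAT adipocytes 2 were higher and 4 lower, beside 10.3% and 27.3%. P2rx7, the ATP receptor upstream of NLRP3, averaged 8.43 FPKM in IAT SVCs and 16.4 in EAT SVCs (fell by 0.88 ± 0.08, limma adjusted p = 1.8e-06), and 0.555 FPKM in IAT adipocytes and 1.92 in EAT adipocytes (fell by 0.91 ± 0.08, limma adjusted p = 2.3e-06). Mefv, which encodes pyrin, fell to 1.13 FPKM in IAT SVCs, against 2.91 in EAT SVCs (limma adjusted p = 2.9e-07), and Nlrp1b to 0.761, against 1.42 (limma adjusted p = 4.6e-04). Nlrp1b, Mefv, Il1f9 and Csf2 are the 4 pathway genes that would not have passed the filter without EAT SVCs, the group where they were high, which bears on their being lower in IAT. Txnip, an abundant thioredoxin-binding protein gene, was the gene higher in IAT SVCs, at 407 FPKM against 264 in EAT SVCs (limma adjusted p = 2.7e-04). Pycard, the adaptor ASC, averaged 6.53 FPKM in IAT SVCs and 8.76 in EAT SVCs (limma adjusted p = 0.0268), a call lost without EAT SVC replicate 2 or 3 or IAT SVC replicate 3, where the adjusted p was 0.107, 0.0509 and 0.115. Gsdmd, the pore-forming gasdermin D, averaged 24.2 FPKM in IAT SVCs and 27.7 in EAT SVCs (limma adjusted p = 0.136), and 2.37 FPKM in IAT adipocytes and 2.65 in EAT adipocytes (limma adjusted p = 0.317, and 0.0393 without IAT adipocyte replicate 1).

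In adipocytes Casp4, the non-canonical caspase, was higher at 22.7, 20.8 and 20.6 FPKM in IAT and 13.9, 8.24 and 11.4 FPKM in EAT (rose by 0.91 ± 0.17, limma adjusted p = 0.00116). Aim2, a DNA sensor, fell by 0.54 ± 0.091 (limma adjusted p = 6.2e-04), from 0.726 FPKM in EAT to 0.19 in IAT. It reached 1 FPKM in SVC libraries alone. Nek7, a partner of NLRP3, fell by 0.38 ± 0.12 (limma adjusted p = 0.0244). The Nek7 call was lost without EAT adipocyte replicate 2 or 3 or IAT adipocyte replicate 1 or 2, where the adjusted p was 0.0945, 0.0721, 0.0846 and 0.07. Pycard in adipocytes averaged 0.799 FPKM in IAT and 1.08 in EAT (limma adjusted p = 0.209).

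Of 17 response genes, 2 were higher and 9 lower in IAT SVCs, beside 14.0% and 26.2% of all features. In IAT adipocytes 7 were higher and 2 lower, beside 10.3% and 27.3%. Mmp3, a matrix metalloproteinase, was 178, 173 and 172 FPKM in IAT SVCs and 1.92, 2.11 and 2.29 FPKM in EAT SVCs (rose by 5.82 ± 0.12, limma adjusted p = 2.5e-12). It was also higher in IAT adipocytes, at 6.23 FPKM against 0.0807 in EAT adipocytes (limma adjusted p = 5.5e-09). These adipocyte means were 3.58% of the SVC mean in IAT and 3.83% in EAT, and the part of SVC RNA in them was not tested. Lcn2, a lipocalin, was 1.8, 2.14 and 1.46 FPKM in IAT SVCs and 17.1, 19.6 and 17.0 FPKM in EAT SVCs (fell by 2.76 ± 0.14, limma adjusted p = 1.0e-08), and the growth factor gene Csf2 averaged 1.03 FPKM in IAT SVCs and 6.21 in EAT SVCs (limma adjusted p = 1.9e-08). Nfkbiz, an NF-κB cofactor gene, fell by 0.94 ± 0.076 in IAT SVCs (limma adjusted p = 7.1e-07). In adipocytes the cytokine gene Il6 was 18.0, 13.4 and 14.5 FPKM in IAT and 4.81, 3.74 and 4.34 FPKM in EAT (rose by 1.62 ± 0.15, limma adjusted p = 4.5e-06). Cxcl1, a neutrophil chemokine gene, averaged 913 FPKM in IAT adipocytes and 270 in EAT adipocytes (limma adjusted p = 4.7e-07), and Zc3h12a, an RNase gene, 17.5 and 8.7 FPKM (limma adjusted p = 6.1e-06). The 2 response genes lower in IAT adipocytes, named after their values were seen, were Cxcl2 and Ptgs2. Cxcl2, another neutrophil chemokine gene, averaged 34.3 FPKM in IAT adipocytes and 132 in EAT adipocytes (fell by 1.86 ± 0.24, limma adjusted p = 7.2e-05). Ptgs2 averaged 0.648 FPKM in IAT adipocytes and 1.29 in EAT adipocytes (limma adjusted p = 0.0177, but 0.0739 without IAT adipocyte replicate 2 and 0.101 after quantile normalization).

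Most pathway genes were lower in adipocytes than in SVCs. In IAT 9 of the 57 were higher in adipocytes and 42 lower (limma), against 29.8% and 53.9% of all features, and in EAT 6 were higher and 45 lower, against 31.1% and 52.7%. The median differences were -1.03 in IAT and -1.75 in EAT. The 3 other ligands and antagonists and the 4 other receptors tested were lower in adipocytes in each depot, but 5 of these 7 (Il33, Il1f9, Il1rl1, Il1rl2 and Il18rap) reached 1 FPKM in SVC libraries alone and so passed the filter through the group where they were high. The same holds for 12 of all 57. After quantile normalization Il1f9 differed by 0.05 in IAT and -0.10 in EAT (limma adjusted p = 0.663 and 0.385). Il33 fell to 0.136 FPKM in IAT adipocytes, against 6.34 in IAT SVCs (limma adjusted p = 2.8e-12), and to 0.546 FPKM in EAT adipocytes, against 13.0 in EAT SVCs (limma adjusted p = 7.0e-13). Ptgs2, which encodes the prostaglandin synthase COX-2, fell to 0.648 FPKM in IAT adipocytes, against 30.3 in IAT SVCs (limma adjusted p = 1.3e-11), and to 1.29 FPKM in EAT adipocytes, against 58.8 in EAT SVCs (limma adjusted p = 5.5e-12). Myd88 averaged 32.4 FPKM in IAT adipocytes and 45.8 in IAT SVCs. The Myd88 difference of -0.49 ± 0.069 (limma adjusted p = 2.0e-05) was -0.11 after median-of-ratios scaling (limma adjusted p = 0.155).

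Whether a depot difference was itself different between the fractions was tested for the 57 pathway genes. The difference in adipocytes exceeded that in SVCs for 22 and was below it for 7 (limma), while 32.5% of all features passed in either direction. The 22 include Nlrp1b, Mefv and Csf2, which passed the filter only through EAT SVCs, the group where they were high. They also include Il33 and Il1rl1, which reached 1 FPKM in SVC libraries alone. The total of 29 was 23 at a pseudocount of 0.1 FPKM. Among the response genes the depot difference (IAT minus EAT) in adipocytes exceeded that in SVCs for 11 of 17 and was below it for 1. The 11 include Csf2, whose ratio of means ran the other way, with IAT at 11.1% of EAT in adipocytes and 16.5% in SVCs. For Lcn2 the interaction was 3.06 ± 0.20 (limma adjusted p = 2.3e-07) and for Casp4 1.62 ± 0.24 (limma adjusted p = 2.1e-04). The same measure for the chosen genes, given without a test, was -3.33 ± 0.19 for Il1r2, -0.72 ± 0.13 for Il1r1 and 0.62 ± 0.17 for Il18, and at a pseudocount of 0.1 FPKM -2.32, -0.81 and 0.68. For Il1a it was 1.09 ± 0.10, and 0.51 at the lower pseudocount, while the ratio of means ran the other way, with IAT at 8.15% of EAT in adipocytes and 12.4% in SVCs. For Nlrp3 it was 0.22 ± 0.20, and -0.91 at the lower pseudocount. The other 5 lay between -0.37 and 0.06, and at the lower pseudocount between -0.66 (Il1b) and 0.16 (Il1rap). The Il1b value was -0.20 ± 0.21 before, while its IAT mean was 22.8% of EAT in adipocytes and 38.4% in SVCs.

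The features whose pattern was most like that of Il1r2 were ranked by Pearson's r of log2(FPKM + 1) over the 12 libraries, among features with a group mean of at least 5 FPKM. Predicted and microRNA gene models (symbols of the Gm, Rik and Mir types) were left out of the ranking. The 10 highest were Gsc (r = 0.996), Slc26a10 (0.993), Col13a1 (0.992), Mylpf (0.990), H2-M9 (0.989), Apol7c (0.988), Cd8b1 (0.985), Mmp3 (0.984), Gsn (0.984) and Fcer2a (0.982). The 12 points fall into 4 groups that share depot and fraction, so r describes the pattern over groups. Gsc, a homeobox gene, averaged 7.83 FPKM in IAT SVCs and 0.585 in EAT SVCs, and 0.641 FPKM in IAT adipocytes and 0.0633 in EAT adipocytes. Cd8b1, a T cell coreceptor gene, averaged 21.5 FPKM in IAT SVCs and 0.638 in EAT SVCs, and was listed at 0 in all EAT adipocyte libraries. Among the chosen genes r with Il1r2 was highest for Il18bp (0.89), and it was 0.40 for Il1b and -0.19 for Il1a.

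The libraries held an estimated 14.1 M to 24.6 M fragments in genes, derived from the deposited confidence bounds, and 10718 to 12418 features at 1 FPKM or more. Of the 10 genes, 4 overlap another annotated feature, whose reads cannot be told apart without strand information. Il1bos, antisense to Il1b by its name, was at most 0.353 FPKM, Gm14023 at the Il1a locus at most 0.268 and Gm16894 at the Il1r2 locus at most 0.147. Gm20319 at the Il1rap locus reached 2.54 FPKM, in IAT SVCs, and was 0.328 to 0.973 FPKM in IAT adipocytes, where its range overlapped that of Il1rap.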

How the data were processed

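Per the submitters' processing notes, reads were processed with TopHat and Cufflinks against GRCm38 (mm10); versions, annotation and strandedness are not given in the sources used here. The authors deposited a table per library of gene FPKM with confidence bounds, which holds no counts. The 12 tables were joined by symbol and locus, and 9 of 24890 features without an OK status in every library were left out. FPKM values were compared with limma 3.58.1 in R 4.3.3 (moderated test with trend, two-sided, all 12 libraries in 1 fit of 4 group means) on log2(FPKM + 1), with Benjamini-Hochberg adjustment over 13175 features. The scripts were tested on simulated data. Fragments behind a value were estimated as Poisson counts from the upper confidence bound, so they cover counting error only.

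The members and lists were chosen with earlier results of these data known. Named were, per comparison, up to 4 called genes of each list with the smallest p (2 for the interaction), and 8 genes fixed by name (Il1rn, Il33, Il1rl1, Il18rap, Sigirr, Myd88, Pycard and Gsdmd). Not all genes so named are discussed. Alternatives were pseudocounts, filters, TPM, scaling by median of ratios or by quantiles, a fit of the compared groups alone or without trend, a replicate block and leaving out each library. Promoter windows came from RefSeq (GRCm38.p6). Of 11 marker lists, 1 gene, Ly6g, was not found.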

Additional observations from a re-analysis of the deposited data

Results flagged for a closer look

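By the interaction test in limma, with adjustment over all features, 32.5% of all features passed in either direction. The depot difference (IAT minus EAT, log2 scale) differed between adipocytes and SVCs for 22 pathway genes in one direction and 7 in the other. Among the 10 of these that the rule for named genes selects, the difference in adipocytes minus that in SVCs was 3.06 for Lcn2, 1.62 for Casp4, 1.09 for Il1rl1, 1.02 for Myd88, 0.84 for Mefv, 0.64 for Il1rn and 0.49 for Il33, and -3.10 for Mmp3, -0.92 for Il1rl2 and -0.62 for Tab3. The adjusted p ranged up to 0.0406, that of Il1rn. Outside that rule, and named after their values were seen, Saa3 (3.17), Cxcl1 (2.56), Ccl2 (2.05) and Il6 (1.96) were also called. Casp4 differed in opposite directions, rising by 0.91 in IAT adipocytes and falling by 0.71 in IAT SVCs. Beside the Mmp3 value, its ratio of means, IAT over EAT, was 77.3 in adipocytes and 82.8 in SVCs, and at a pseudocount of 0.1 FPKM its interaction was -1.17. At that pseudocount the sign turned for Il1rn (-0.53) and Il33 (-0.42), and Il1rl1 (0.42, adjusted p = 0.11) and Il1rl2 (-0.40, adjusted p = 0.529) lost the call. The Il1rn call was also lost without any 1 library (adjusted p between 0.0563 and 0.0999) other than EAT adipocyte replicate 1, EAT SVC replicate 2 and IAT SVC replicate 1. The total of 29 pathway genes called was 23 at a pseudocount of 0.1 FPKM and 23 on the TPM scale. Nlrp1b, Mefv and Csf2, among the 22, passed the filter only through EAT SVCs, the group where they were high.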

How the results depend on the processing

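There were 22 alternatives, 12 of them leaving out 1 library, and not every result was judged under each. For a named gene in a comparison of 2 groups, only libraries of those groups were left out. The fit of the compared groups alone did not cover the interaction. Of 96 named pathway results, 82 kept their direction and side of the threshold under every alternative applied to them, and 14 changed call. Of 40 differences of the chosen genes, 2 changed sign. The causes were not tested. Of the pathway genes, 17 were lower in IAT than in EAT adipocytes, against 11 after median-of-ratios scaling and 9 after quantile normalization. The 8 higher in IAT than in EAT SVCs became 4 on the TPM scale and between 5 and 8 without 1 library. For Il1r2, pseudocounts of 0.1 and 0.5 FPKM gave 2.88 and 1.83 for IAT minus EAT in adipocytes, 5.20 and 4.92 in SVCs, -5.07 and -4.82 for adipocytes minus SVCs in IAT, and -2.75 and -1.73 in EAT. The TPM scale gave 1.87 for IAT minus EAT in adipocytes and -1.75 for adipocytes minus SVCs in EAT. Quantile normalization gave 5.09 for IAT minus EAT in SVCs, and -4.31 in IAT and -0.57 in EAT for adipocytes minus SVCs, and median-of-ratios scaling gave -4.24 in IAT. Without 1 library the Il1r2 differences, in the same order, were 1.18 to 1.40, 4.57 to 4.78, -4.68 to -4.46 and -1.31 to -1.08.

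Scaling or a pseudocount of 0.1 FPKM also ended the calls of Nek7 in adipocytes and of Il1f9 and Pycard in SVCs, the TPM scale ended that of Myd88 in SVCs (adjusted p = 0.432), and Gsdmd in SVCs was called on the TPM scale (adjusted p = 0.0488). Signs turned for 5 differences, some of them called before the change of setting. For IAT minus EAT in adipocytes, Il18 was -0.03 to 0.20 and Il18r1 -0.05 to 0.01 without 1 library, and Il18r1 was 0.02 after quantile normalization. Adipocytes minus SVCs in IAT gave 0.05 for Il1f9 after quantile normalization, against -0.62 before it (limma adjusted p = 7.7e-05). The interactions of Il1rn and Il33 were -0.53 and -0.42 at a pseudocount of 0.1 FPKM. At 1 FPKM they were 0.64 and 0.49, both called (limma adjusted p = 0.0406 and 0.00339).

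With a replicate block, 29 pathway genes were called between the depots in adipocytes (28 without), 34 in SVCs (33 without), 52 between the fractions in IAT (51 without), and 51 in EAT and 29 in the interaction, as without. The labels do not say whether shared replicate numbers pair the libraries. Deviations of same-numbered libraries correlated between -0.31 and 0.37, and not above 0.1 in every pair of any comparison. With 3 libraries per group these correlations cannot decide whether libraries were paired. Depth limits the adipocyte values of Il1a, Il1r2 in EAT and Il18r1, which rest on few fragments.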
